A study of Mus musculus with 4 samples.

Results

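The 6 genes described here, Selp, Sele, Icam1, Vcam1, Icam2 and Pecam1, encode the adhesion molecules with which the vessel wall catches circulating leukocytes. They were taken by symbol and identifier from the feature list, which holds 55487 genes, and each of the 6 had exactly 1 row. Their unique molecular identifiers (UMIs, each standing for 1 captured RNA molecule) were summed by library, cell class and vessel segment. Brain cells of 4 groups of mice were measured by droplet-based single-cell RNA sequencing with 1 library each, so no group had a replicate. The groups were WT Cre and EC-K4KO mice, each young and old. The strain background was C57BL/6J, and the study used both sexes. EC-K4KO mice carry floxed Klf4 alleles and the tamoxifen-inducible Cdh5 (VE-cadherin) Cre. WT Cre mice are littermate controls that carry the Cre alone. Cdh5 drives the Cre in endothelial cells of every organ, so the deletion is not limited to the brain. How many mice made up a library, and of which sex, is not given in the sources used here.

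Leukocytes leave the blood in steps. P-selectin (Selp), stored in granules of endothelial cells and platelets, and E-selectin (Sele), made by activated endothelium, bind sugars on passing leukocytes so that they roll along the wall. ICAM1 and VCAM1, which hold leukocyte integrins firmly, are both induced on activated endothelium, whereas ICAM2 and PECAM1 (CD31) are made by resting endothelium, and PECAM1 acts when leukocytes pass between the cells. In the healthy brain few leukocytes cross, and those that do cross mainly through postcapillary venules.

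In the annotation of build GRCm38, Icam1 (ENSMUSG00000037405) lies on the + strand of chromosome 9 at chr9:21015985-21028817, next to Icam4 and Icam5. Sele (ENSMUSG00000026582) and Selp (ENSMUSG00000026580) lie on the + strand of chromosome 1 at chr1:164048234-164057677 and chr1:164115264-164150026. Vcam1 (ENSMUSG00000027962) lies on the - strand at chr3:116109949-116129688. Icam2 (ENSMUSG00000001029) and Pecam1 (ENSMUSG00000020717) lie on the - strand of chromosome 11 at chr11:106377656-106388075 and chr11:106654217-106750628. All 6 are protein coding. Antisense genes overlap 3 of them and had few UMIs in endothelial-like cells: 139 for Gm47079 against 33003 for Icam1, 7 for Gm43109 against 41276 for Vcam1, and 7 and 33 for Gm16587 and Gm16548 against 1021 for Selp.

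The 250 bases before the start site are shown for the 3 members that have an entry in the RefSeq promoter table (GRCm38.p6). They cover chr9:21015690-21015939 for Icam1, whose RefSeq start differs from the start given above, chr1:164047984-164048233 for Sele and chr1:164115014-164115263 for Selp, all on the + strand and written 5′ to 3′. Capitals mark motif matches on either strand.
Icam1: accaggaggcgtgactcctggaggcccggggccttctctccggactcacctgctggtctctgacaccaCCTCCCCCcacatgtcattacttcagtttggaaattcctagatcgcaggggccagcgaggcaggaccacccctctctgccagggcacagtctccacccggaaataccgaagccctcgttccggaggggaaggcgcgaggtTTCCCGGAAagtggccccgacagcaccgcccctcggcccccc
Sele: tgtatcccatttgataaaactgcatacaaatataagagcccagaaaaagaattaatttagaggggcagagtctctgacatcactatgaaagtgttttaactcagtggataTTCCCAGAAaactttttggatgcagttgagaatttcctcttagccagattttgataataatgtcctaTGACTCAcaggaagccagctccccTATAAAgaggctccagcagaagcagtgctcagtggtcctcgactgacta
Selp: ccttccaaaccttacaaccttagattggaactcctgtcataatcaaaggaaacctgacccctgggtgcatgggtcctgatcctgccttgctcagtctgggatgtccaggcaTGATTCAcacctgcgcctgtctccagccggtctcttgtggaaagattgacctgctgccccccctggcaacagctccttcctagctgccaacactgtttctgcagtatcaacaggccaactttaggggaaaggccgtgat
In Icam1 the capitals are a match to the KLF pattern (CCNCNCCC, 182 to 175 bases before the start) and an interferon-activated GAS element (TTCNNNGAA, 42 to 34 bases before it). Sele held a GAS element (140 to 132 bases before the start), an AP-1 element (TGANTCA, 73 to 67 bases) and a TATA box (TATAAA, 49 to 44 bases). Selp held an AP-1 element only, 139 to 133 bases before the start. Of all 32817 promoters of the same length in the table, 45.9% held the KLF pattern, 7.01% the GAS element, 6.75% the AP-1 element and 12.4% the TATA box. The consensus used for NF-κB, held by 7.25% of promoters, had no match in these 3 windows. Stretches that depart from this consensus were not counted, so NF-κB sites may still lie in them. A match describes the letters only. Vcam1, which like these 3 genes had higher levels in the old libraries, Icam2 and Pecam1 have no entry and are not shown.

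After filtering, 20737 cells were kept, 4146 to 6555 per library. The labels name the samples endothelial, and 10213 of the kept cells were endothelial-like cells (ECs) by marker genes that did not include the 6 members: 2763 in young WT Cre, 3356 in the young library labelled EC-K4KO, 2181 in old WT Cre, with 1913 in the old library labelled EC-K4KO. Their median depth was 6349, 9905, 4698 and 3774 UMIs per cell, so the old libraries were shallower. Pairs of libraries shared 6 to 10 kept cell barcodes. Klf4, the targeted gene, went against the labels. Its level in ECs was 1709 and 2093 CPM (UMIs of the gene per 1000000 UMIs of the class) in young and old WT Cre, and 3285 and 3291 CPM in the young and old libraries labelled EC-K4KO (log2 difference 0.83 with the EC-K4KO label, adjusted p = 0.00368, edgeR's quasi-likelihood test). Whether the counted part of the transcript lies in the deleted part is not given in the sources used here. Every difference by genotype given for the adhesion genes is therefore one between libraries with those labels.

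The plot of levels in ECs shows the 6 genes in the order in which leukocytes meet them. Intervals in brackets are 95% intervals of counting error (exact Poisson for CPM, exact binomial for ratios and shares) and hold no spread between cells or mice. UMIs were counted per gene without regard to gene length.

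**Figure D1:**
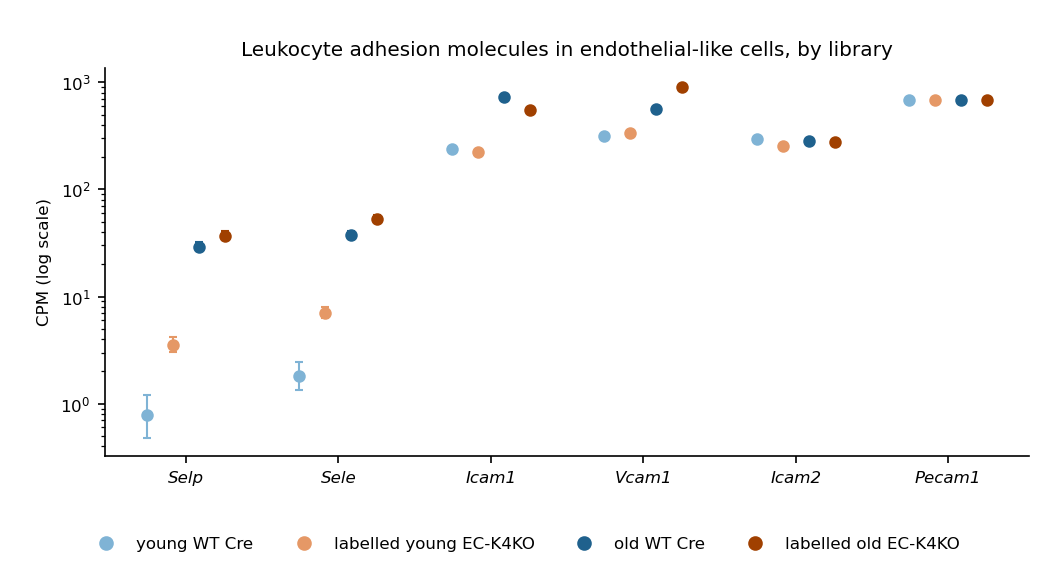
Level of each adhesion gene in endothelial-like cells, in CPM on a log axis, as 1 point per library with the exact 95% Poisson interval. Selp and Sele range from 0.775 and 1.82 CPM in young WT Cre to 36.9 and 53.5 CPM in the old library labelled EC-K4KO, whereas Pecam1 lies between 682 and 687 CPM in all 4 libraries.

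Sele and Selp were rare in young WT Cre and higher in both old libraries. Sele was at 1.82 CPM [1.34, 2.42] in young WT Cre, 7.07 [6.30, 7.90] in the young library labelled EC-K4KO, 37.6 [34.6, 40.8] in old WT Cre, and reached 53.5 [49.2, 58.0] in the old library labelled EC-K4KO. Selp was at 0.775 CPM [0.474, 1.20], 3.54 [3.01, 4.15], 29.3 [26.6, 32.1] and 36.9 [33.4, 40.7] in the same order. For both selectins the 4 libraries kept this order with no overlap of counting intervals, and both old libraries lay above both young ones. These intervals treat UMIs as independent, although many came from the same cells, so their lack of overlap is no test of the order. These levels came from few cells. Sele had a UMI in 17, 78, 55 and 81 ECs, and Selp in 10, 33, 39 and 36. In old WT Cre 6 cells held at least 50% of the Sele UMIs, 120 of them in a single cell, and 6 cells held at least 50% of the Selp UMIs. With the 10 highest cells of each library left out, a check chosen after the data had been seen, Sele was at 0.275, 4.68, 14.3 and 29.6 CPM and Selp at 0, 0.989, 9.15 and 8.15 CPM. This removes all 10 cells with a Selp UMI and 10 of 17 with a Sele UMI in young WT Cre, so its values there are set by the check itself. The shares of ECs with a UMI, after each cell was thinned to 1000 UMIs, were 0.0724%, 0.358%, 1.01% and 1.73% for Sele and 0.0362%, 0.179%, 0.596% and 0.784% for Selp, against no UMI of either gene in oligodendrocyte-like cells of any library.

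Icam1 was at 239 CPM [233, 245] in young WT Cre and 224 [220, 229] in the young library labelled EC-K4KO. In old WT Cre it was at 724 CPM [710, 737] and in the old library labelled EC-K4KO at 553 [539, 567]. Both old libraries stood above both young ones in these summed levels. Vcam1 was at 315 CPM [308, 322], 336 [331, 342], 567 [555, 579] and 906 [888, 924] in the order above. Old WT Cre held the most Icam1, whereas the old library labelled EC-K4KO held the most Vcam1. The thinned shares of ECs with a UMI were 7.67%, 8.58%, 17.7% and 15.6% for Icam1 and 8.47%, 9.65%, 11.5% and 14.7% for Vcam1. In oligodendrocyte-like cells, which should lack these genes, Icam1 reached at most 4.85 CPM and Vcam1 at most 2.42 CPM.

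The resting genes differed far less. Icam2 was at 293, 254, 285 and 276 CPM, lowest in the young library labelled EC-K4KO. Pecam1 was at 687 CPM [677, 697], 682 [674, 690], 683 [670, 696] and 684 [669, 700], and these 4 intervals overlapped. The extraction protocol in the labels, written for several assays together, names flow sorting or purification by an endothelial marker. The study describes an isolation with beads against CD31, the product of Pecam1, for another assay, and whether CD31 was used for these libraries is not given in the sources used here.

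Between WT Cre libraries, 3 of the 6 genes were at least 2-fold higher in the old one, with log2 ratios of 5.20 [4.59, 5.96] for Selp, 4.35 [3.94, 4.83] for Sele and 1.60 for Icam1. Of all 8439 genes with at least 10 CPM, 1.87% were at least 2-fold higher in this comparison. The minimum was set on the mean over the 4 libraries, and Sele and Selp pass it only through the old libraries, so this share is not one for genes at their level in the young libraries. Nothing is read from it for these 2 genes, here or in the other comparisons between libraries. Vcam1 followed at 0.85. Scaling by TMM instead of total UMIs added 0.16 to every log2 ratio of this comparison, which brought Vcam1 past 2-fold and turned Icam2 from -0.04 to above 0. Between the libraries labelled EC-K4KO, 4 of 6 were at least 2-fold higher in the old one (1.75% of all genes), with log2 ratios of 3.38 for Selp, 2.92 for Sele, 1.43 for Vcam1 and 1.30 for Icam1. Here TMM added 0.13.

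By genotype label, 2 of 6 were at least 2-fold higher in the young library labelled EC-K4KO than in young WT Cre (0.332% of the same genes, from which nothing is read for these 2), Selp with a log2 ratio of 2.16 [1.52, 2.94] and Sele with 1.94 [1.51, 2.43]. These rest on 20 and 47 UMIs in young WT Cre. None of the 6 reached 2-fold in the old pair, where 0.652% of all genes did in either direction. There Vcam1 was higher with a log2 ratio of 0.68 [0.63, 0.72], Sele with 0.51 [0.34, 0.68] and Selp with 0.34 [0.14, 0.53], while Icam1 was lower at -0.39 [-0.43, -0.34]. With cells weighted equally, or without the 10 highest cells, Sele passed 2-fold in the old pair too, while without those cells the ratio of Selp turned to -0.16. With 1 library on each side, none of these 4 comparisons had a replicate check.

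The only test the design allows sets the 2 old against the 2 young libraries, and the 2 labelled EC-K4KO against the 2 WT Cre libraries, in 1 additive model over all genes with 1 residual degree of freedom. With age, 4 of 6 rose in edgeR's quasi-likelihood test at an adjusted p threshold of 0.05, against 12.2% of the 14961 genes tested. Selp rose by 4.10 on the log2 scale (edgeR adjusted p = 5.39e-06), Sele by 3.59 (edgeR adjusted p = 5.05e-06), Icam1 by 1.60 (edgeR adjusted p = 2.47e-06) and Vcam1 by 1.29 (edgeR adjusted p = 4.22e-05), each higher in both old than in both young libraries. Icam2 (0.19, edgeR adjusted p = 0.122) and Pecam1 (0.14, edgeR adjusted p = 0.255) did not pass. The median over the 6 was 1.44, against -0.02 over all genes tested. Markers of several other cell types were also higher in ECs of both old than of both young libraries. The 7 neutrophil markers summed to 7.09, 6.93, 10.2 and 178 CPM and the 7 border macrophage markers to 10.4, 16.7, 25.4 and 32.5 CPM in the order above. The 7 platelet markers summed to 14.5, 14.2, 24.9 and 33.7 CPM and the 6 choroid plexus markers to 74.9, 17.1, 296 and 138 CPM. The part of these markers' cells in the values of the adhesion genes in ECs was not tested. With the genotype label, 0 of 6 passed, against 2.23% of all genes in either direction. The largest values were 1.01 for Sele (edgeR adjusted p = 0.0565), 0.84 for Selp (edgeR adjusted p = 0.1997) and 0.42 for Vcam1 (edgeR adjusted p = 0.128), and Icam1 was at -0.21 (edgeR adjusted p = 0.413). At an unadjusted p under 0.05, 4 of 6 would pass in edgeR, as would 12.1% of all genes, and DESeq2 passed 0 after adjustment (0.782% of all genes; with age it passed 4, against 6.68%). With no filter on low counts Sele, Selp and Vcam1 passed with the label in edgeR, as did 2.89% of the 27435 genes then tested. Without venous-like cells, where the selectins were too low to be tested, Icam1 rose by 1.54 (edgeR adjusted p = 2.46e-05) and Vcam1 by 0.64 (edgeR adjusted p = 0.0496) with age, and 14.8% of genes passed. The higher Vcam1 did not hold in both pairs there, with a log2 ratio of -0.0032 for old over young WT Cre and 1.02 between the libraries labelled EC-K4KO.

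Vessel segments were assigned by marker genes from clusters formed without the 6 members. Arteries carry blood in, capillaries exchange with the tissue, and venules collect it. Of the 2 venous-like clusters, 1 was led by Ackr1, the chemokine-binding receptor of venular endothelium, which was at 539 CPM in it and at 44.6 CPM in the other. The other, led by Cyp2e1, Wnt5a, Flrt2 and the amino acid transporter gene Slc38a5, is called Slc38a5-led here, although Slc38a5 itself was at 595 CPM in it and at 648 CPM in the Ackr1-led cluster. The Ackr1-led cluster also carried Ptgs2, Lcn2, Ch25h, Lrg1 and Cxcl1 among its leading genes, several of which are inducible by inflammation. It held 50, 172, 185 and 180 cells with median depths of 30430.5, 28126, 13636 and 10465.5 UMIs in the order above. The other cell types' markers differed between libraries within it. The 7 platelet markers summed to 13.2 to 22.4 CPM and the 8 T and NK cell markers to 0 to 0.197 CPM, while the 7 erythroid markers ranged from 86.0 to 1152 CPM and the 7 neutrophil markers from 5.18 to 91.8 CPM, both highest in the old library labelled EC-K4KO. Pericyte markers ranged from 31.2 to 267 CPM and choroid plexus markers from 17.2 to 177 CPM, both highest in old WT Cre. The part of these markers' cells in the values of the adhesion genes was not tested.

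**Figure D2:**
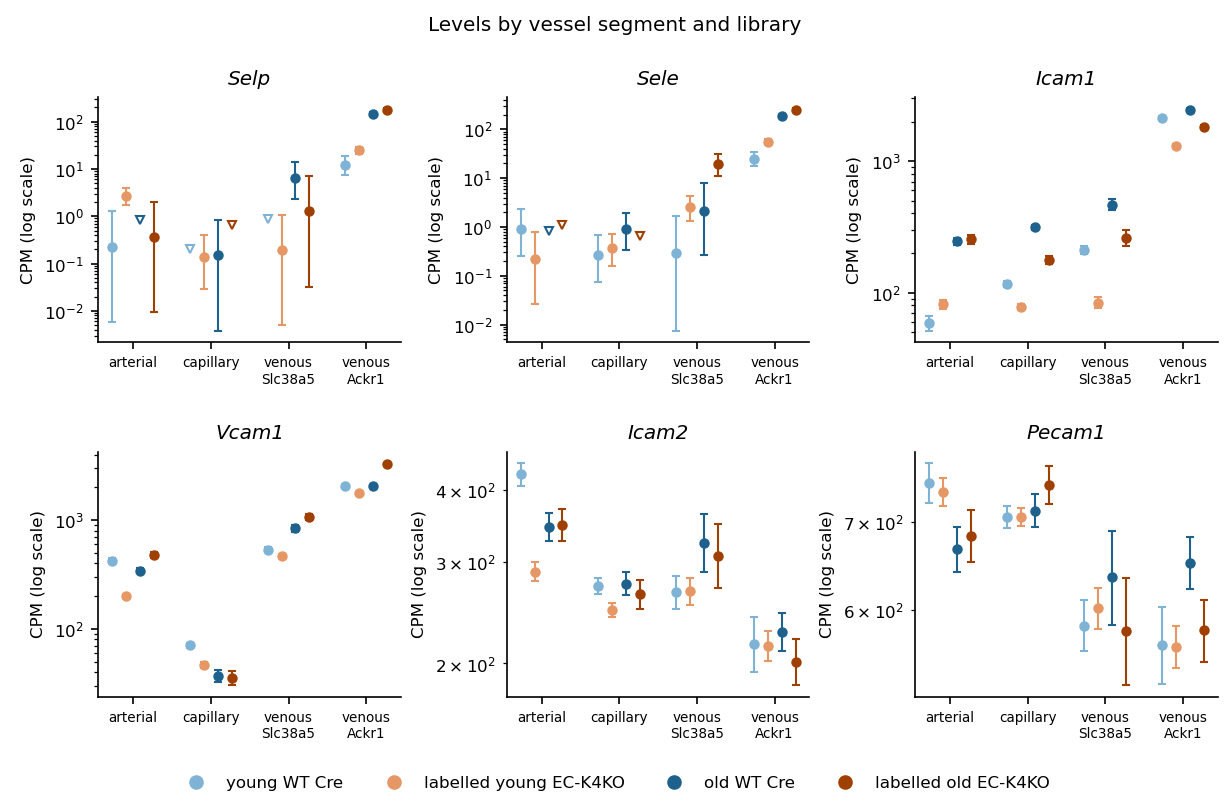
Level of each adhesion gene by vessel segment and library, in CPM on log axes that differ between panels, with exact 95% Poisson intervals; open triangles stand at the value of 3 UMIs where no UMI was counted. Selp, Sele, Icam1 and Vcam1 peak in the Ackr1-led venous-like cells of every library, whereas Icam2 and Pecam1 are lowest or near their lowest there.

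Selp, Sele, Icam1 and Vcam1 were all highest in the Ackr1-led cells in each of the 4 libraries. Sele there was at 24.6 CPM [17.4, 33.7] in young WT Cre, 55.9 [49.5, 62.8] in the young library labelled EC-K4KO, 186 [171, 202] in old WT Cre, and reached 247 [227, 269] in the old library labelled EC-K4KO. Selp was at 12.3 CPM [7.40, 19.2], 24.7 [20.5, 29.4], 145 [132, 160] and 174 [157, 192]. Capillary-like cells held at most 8 Sele and 3 Selp UMIs in any library, so both selectins came mostly from venous-like cells. In the young library labelled EC-K4KO 25 of 155 Selp UMIs came from arterial-like cells, where 0.667% of 600 cells had any. Icam1 in Ackr1-led cells was at 2113, 1313, 2465 and 1831 CPM, and Vcam1 at 2039, 1778, 2058 and 3265 CPM. In both age groups Icam1 was lower and Sele and Selp were higher in the library labelled EC-K4KO than in WT Cre.

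Along the vessel the 2 integrin ligands differed. Vcam1 was lowest in capillary-like cells (70.2, 46.0, 36.6 and 35.3 CPM), intermediate in arterial-like cells (424, 200, 341 and 477 CPM) and higher in Slc38a5-led cells (534, 471, 841 and 1066 CPM). Icam1 in capillary-like cells was at 116, 77.9, 315 and 177 CPM, against 58.3, 81.5, 246 and 255 CPM in arterial-like and 211, 84.0, 465 and 260 CPM in Slc38a5-led cells. In WT Cre it thus went up from arterial-like through capillary-like to Slc38a5-led cells, whereas in both libraries labelled EC-K4KO capillary-like cells had the lowest value, within the counting interval of arterial-like cells in the young one. In Slc38a5-led cells Sele was at 0.296, 2.53, 2.16 and 19.3 CPM, the last from 15 UMIs in 87 cells. Icam2, by contrast, was highest in arterial-like cells of all 4 libraries, at 426, 289, 345 and 348 CPM. Its level in Ackr1-led cells was 201 to 227 CPM over the 4 libraries. Pecam1 was at 667 to 749 CPM in arterial-like and 562 to 651 CPM in Ackr1-led cells.

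**Figure D3:**
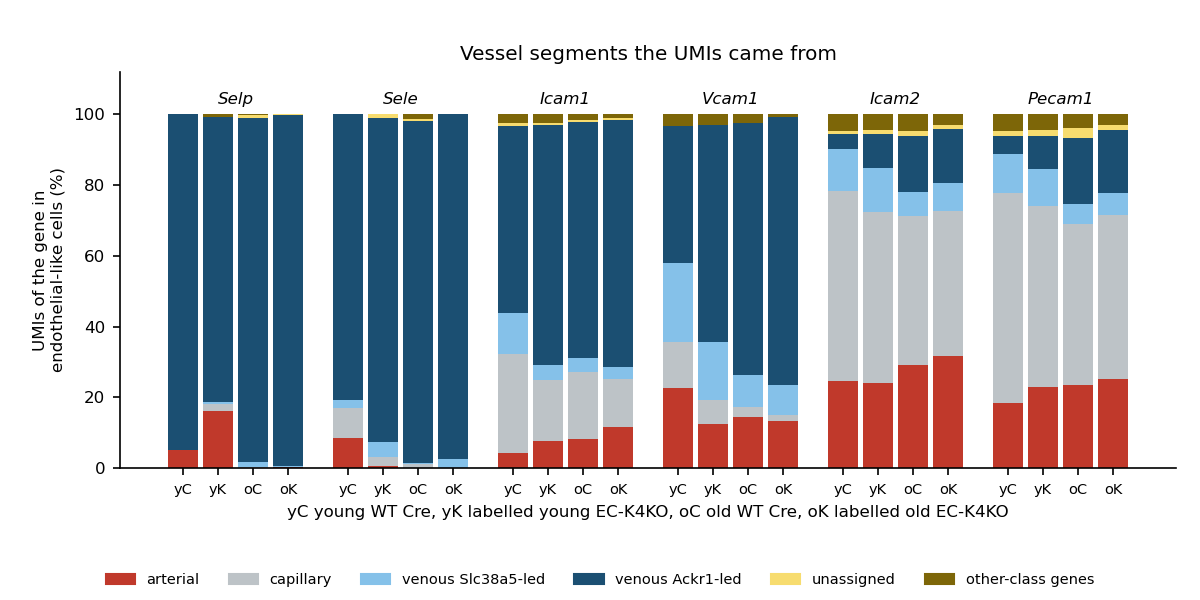
Share of each gene's UMIs in endothelial-like cells that came from each vessel segment, as stacked bars that sum to 100% for each library. The Ackr1-led venous-like cells gave over 80% of Selp and Sele UMIs in all 4 libraries, while capillary-like cells gave the largest part of Icam2 and Pecam1.

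The Ackr1-led cells thus supplied most UMIs of the inducible genes: 80.6% to 99.2% for Selp, 80.9% to 97.4% for Sele and 53.0% to 69.7% for Icam1. For Vcam1 they supplied 38.8% in young WT Cre and 75.9% in the old library labelled EC-K4KO. These cells gave 5.99%, 11.6%, 19.6% and 21.1% of all EC UMIs in the order above. With age, the mix of recovered segments thus moved together with the summed levels of the inducible genes. With the EC-K4KO label Icam1 did not follow it, being lower in both pairs while this share was higher. How many such cells the vessels held and how many were recovered cannot be told apart. Levels were therefore also computed at 1 fixed segment mix and within the Ackr1-led cells alone.

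**Figure D4:**
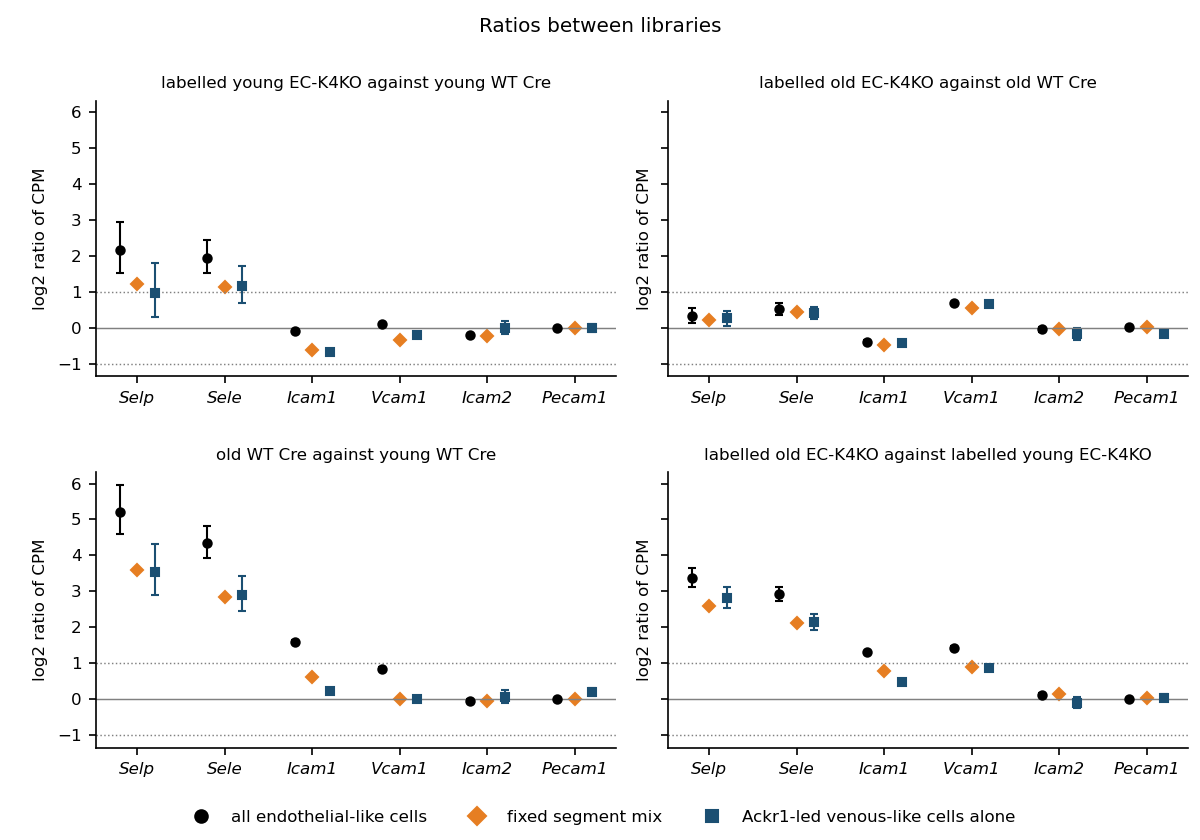
Log2 ratio of CPM for each adhesion gene in the 4 comparisons between libraries. Black circles are all endothelial-like cells, orange diamonds the fixed segment mix and blue squares the Ackr1-led venous-like cells alone; bars are 95% counting intervals, given for circles and squares, and dotted lines mark 2-fold. In both comparisons by age the squares of Selp and Sele stay above 2-fold, and those of Icam1 and Vcam1 do not.

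At the fixed mix the log2 ratios of old over young WT Cre were 0.62 for Icam1, 0.00 for Vcam1, 2.84 for Sele and 3.58 for Selp. Between the libraries labelled EC-K4KO the fixed-mix ratios were 0.77 for Icam1, 0.90 for Vcam1, 2.13 for Sele and 2.58 for Selp. By genotype label at the fixed mix, Icam1 was lower in both pairs, with log2 ratios of -0.63 in the young and -0.48 in the old one, and Vcam1 was at -0.35 and 0.55, where the summed level of the young pair gave 0.10. Sele and Selp kept their direction, with 1.14 and 1.22 in the young and 0.42 and 0.22 in the old pair. Within Ackr1-led cells the log2 ratio of old over young WT Cre was 2.90 [2.44, 3.43] for Sele, 3.53 [2.90, 4.31] for Selp, 0.22 [0.16, 0.28] for Icam1 and 0.01 [-0.05, 0.08] for Vcam1. The libraries labelled EC-K4KO gave 2.15, 2.81, 0.48 and 0.88. In the additive model over Ackr1-led cells, Selp rose by 3.15 with age (edgeR adjusted p = 2.49e-04), Sele by 2.53 (edgeR adjusted p = 4.40e-04) and Icam1 by 0.47 (edgeR adjusted p = 0.0277), whereas Vcam1, at 0.57, did not pass (edgeR adjusted p = 0.112). In these cells 4.92% of 10664 genes passed with age in either direction. By genotype label, Sele in Ackr1-led cells of the young pair had a log2 ratio of 1.17 [0.69, 1.71] and Selp 0.97 [0.30, 1.78], against 0.41 [0.24, 0.58] and 0.26 [0.06, 0.46] in the old pair. The thinned shares of Ackr1-led cells with a UMI were 2%, 5.81%, 11.4% and 17.8% for Sele and 2%, 2.91%, 5.95% and 7.78% for Selp.

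Capillary-like cells showed a different pattern for the integrin ligands. Icam1 rose with age in them by 1.47 on the log2 scale (edgeR adjusted p = 8.73e-09), while Vcam1 fell by 0.54 (edgeR adjusted p = 0.00526). Of 13201 genes tested in capillary-like cells 14.9% passed with age. The lower Vcam1 did not hold throughout. With segments assigned cell by cell it was at 25.7 CPM in young and 30.3 CPM in old WT Cre, while the libraries labelled EC-K4KO kept the lower old value with 15.3 and 13.3 CPM. In the 1 capillary-like sub-cluster that held over 300 cells of every library, named after its values were seen, it was higher in the old libraries, at 22.0 and 15.5 CPM in the young and 74.3 and 54.9 CPM in the old ones. Icam1 was also lower with the EC-K4KO label, by -0.68 (edgeR adjusted p = 3.34e-04; 2.26% of genes passed in either direction), and the lower value held in both pairs, with log2 ratios of -0.58 [-0.67, -0.48] in the young and -0.83 [-0.95, -0.71] in the old one. The UMIs of both genes in capillary-like cells came from different sub-clusters at the 2 ages. For Icam1, in old WT Cre 85.1% and in the old library labelled EC-K4KO 91.2% came from a sub-cluster led by Ankrd37, Adm, Depp1 and Ier3, which held 733 and 640 cells of the old libraries and 13 and 10 of the young ones. In the young libraries 71.8% and 85.1% came from a sub-cluster led by Gm26802, Gm10837, Serpine2 and Car4, a gene of capillary endothelium, with the early genes Ier2, Fos and Egr1 and the heat shock gene Hspa1b further down among its leading 10. It held 510 and 878 young and 87 and 50 old cells. For Vcam1 the first of these gave 52.9% and 52.1% in the old, and the second 68.6% and 83.1% in the young libraries. Within sub-clusters of both ages the Icam1 difference was smaller or turned. It was at 37.5 and 19.0 CPM in the young and 54.9 and 26.4 CPM in the old libraries in the sub-cluster with over 300 cells of each, and at 23.8 and 15.9 CPM against 18.0 and 5.46 CPM in the next, which held 148 to 542 cells of each. Since the sub-clusters that gave most UMIs are mostly of 1 age, cell state and library cannot be told apart in them. Early and heat shock genes can also be induced while tissue is dissociated, and their part in Icam1 and Vcam1 was not tested.

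Icam1 and Vcam1 were often seen in the same Ackr1-led cell, after thinning in 31, 75, 92 and 99 cells in the order above. Each was seen in most of these cells by itself, so no association is read from this. Of Selp, Sele, Icam1 and Vcam1, exactly 2 were seen after thinning to 1000 UMIs in 60.0%, 44.8%, 44.9% and 44.4% of these cells in the order above. A gene not seen at that depth may still be expressed: without thinning, 96.0% to 98.4% of the cells had an Icam1 UMI and 24.0% to 41.7% a Sele UMI. At least 3 were seen after thinning in 1 of 50 cells of young WT Cre and in 6 of 172 of the young library labelled EC-K4KO. In old WT Cre 16 of 185 cells had 3 and 3 cells had all 4, and in the old library labelled EC-K4KO 23 of 180 had 3 and 6 had all 4. Across these cells the Pearson correlation of Icam1 with Vcam1 was 0.52, 0.51, 0.32 and 0.40 in the order above, and that of Sele with Selp 0.07, 0.41, 0.71 and 0.41. Cells of a library share depth and preparation, so these are descriptions.

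Icam1 and Vcam1 had further sources outside the endothelium. ECs gave 71.1% to 81.8% of the Icam1 and 68.4% to 82.4% of the Vcam1 UMIs of kept cells. For Sele the range was 85.5% to 99.1% and for Selp 71.4% to 99.3%, the lowest Selp share being 20 of 28 UMIs in young WT Cre. Microglia-like cells, the resident macrophages of brain tissue, had Icam1 at 352 CPM, 277, 506 and 396 in the order above, next to ECs in the mean over libraries. Vcam1 in microglia-like cells was 33.1 and 21.0 CPM in the young and 98.6 and 95.03 CPM in the old libraries. In border macrophage-like cells, which sit along vessels and meninges, Vcam1 was 188 and 295 CPM in the young and 665 and 681 CPM in the old libraries. Both macrophage classes thus had Vcam1 higher in each old library than in each young one. Astrocyte-like cells held Vcam1 at 199 to 248 CPM in all 4 libraries with Icam1 at most 21.0 CPM. Fibroblast-like cells had Vcam1 at 798, 441, 332 and 1014 CPM, from 137 to 526 UMIs, with no order by age. Choroid plexus epithelium-like cells reached 20 cells in the old libraries alone, with Vcam1 at 277 and 349 CPM.

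**Figure D5:**
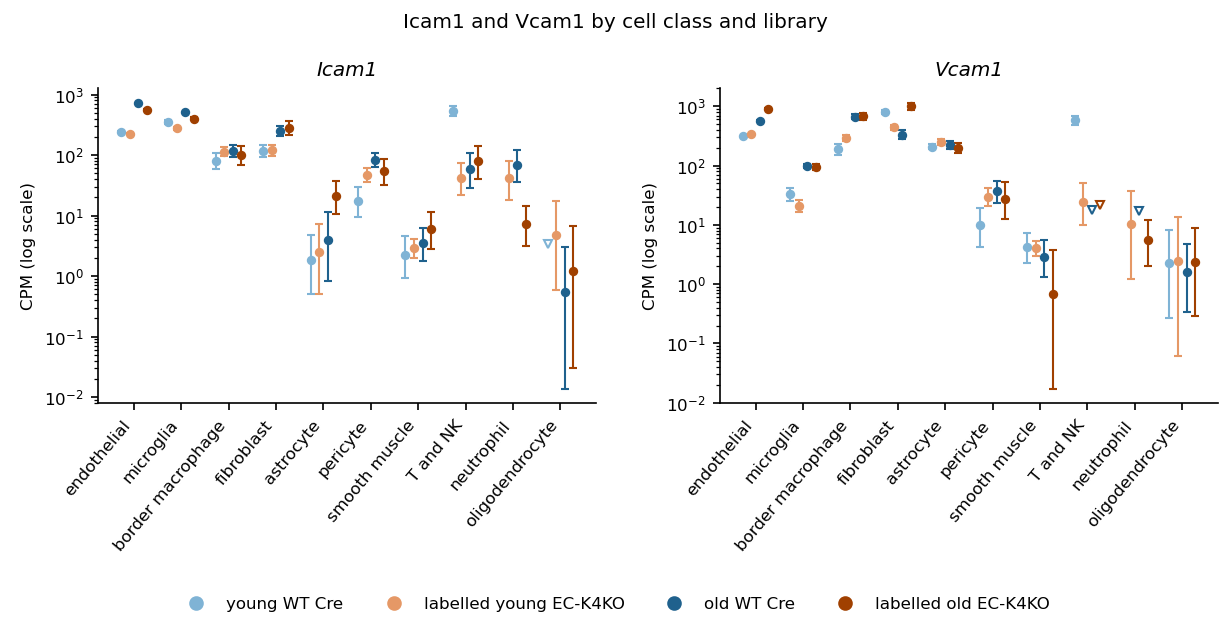
Icam1 and Vcam1 by cell class and library, in CPM on log axes, with exact 95% Poisson intervals; open triangles stand at the value of 3 UMIs where no UMI was counted, and libraries with fewer than 20 cells of a class are left out. Oligodendrocyte-like cells, which lie at or below 4.85 CPM for both genes, show the level of background.

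Neutrophil-like cells were 0.245%, 0.549%, 0.632% and 6.05% of the kept cells in the order above, with 1 library behind each share. They had 3, 0 and 9 Selp UMIs in the 3 libraries with at least 20 of them, which left out young WT Cre. T and NK-like cells of young WT Cre (24 cells) had Icam1 at 538 CPM and Vcam1 at 586 CPM, while the other 3 libraries reached at most 80.3 and 24.6 CPM. Sele and Selp reached 19.2 and 4.81 CPM in the highest library of this class. The part of endothelial RNA or of doublets in these values was not tested.

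The genes whose levels followed each member most closely were found over 62 combinations of library with segment or class, among 10357 genes, by Pearson's r of log2(CPM + 1). Sele went with Ackr1 (0.81), the interferon-induced chemokine Cxcl11 (0.80) and Adgrg6 (0.78), and Selp with Lrg1 (0.76), Cxcl11 (0.70) and Lcn2 (0.68). Icam1 went with B2m, the light chain of MHC class I (0.85), Nfkbia, the NF-κB inhibitor (0.83), and Elk3 (0.81). Vcam1 was followed less closely than Icam1, by Dab2 (0.74), Sult1a1 (0.73) and Gm4951 (0.72). Icam2 went with Ly6c1, Ly6a and Cyyr1 (all 0.96) and Pecam1 with Ly6c1 and Ly6a (both 0.95) and with Icam2 (0.94). Ackr1, Adgrg6, Lrg1 and Lcn2 are on the marker list that named the venous-like segments, and Ly6c1 is on the endothelial list. Their match to members that are high in those cells is thus partly built in. The combinations of 1 library share its preparation, so no p is given.

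Other genes that act with these 6 molecules were followed by list. Among 20 further adhesion and transmigration genes, 17 were tested in ECs, and 6 rose and 0 fell with age, against 12.2% and 8.26% of all genes tested. The risers were Icam4 by 1.74 (edgeR adjusted p = 5.29e-04), the poliovirus receptor Pvr by 1.08 (edgeR adjusted p = 2.26e-05), Vwf, which is stored with P-selectin, by 0.68 (edgeR adjusted p = 0.00231), Cd63, a membrane protein of the same granules, by 0.54 (edgeR adjusted p = 0.0386), Mcam by 0.53 (edgeR adjusted p = 0.0309) and Ninj1 by 0.43 (edgeR adjusted p = 0.0113). The median of the 17 was 0.07. Values of this and the following lists are for all ECs together and were not computed at the fixed segment mix. Vwf is also on the marker list of the venous segment, whose share differed between libraries. The highest of this list, the junction molecule Esam, was at 616 to 758 CPM, and the lowest, Glycam1, was at 0 in all libraries. Of the 13 genes that anchor and cluster ICAM1 and VCAM1 at the cell surface, the tetraspanin Cd9 rose by 1.02 (edgeR adjusted p = 1.78e-05) and ezrin (Ezr) by 0.79 (edgeR adjusted p = 7.00e-05) with age, whereas the actin linker Actn1 and the tetraspanin Cd151 fell by 0.36 and 0.26. Ezr was the only list gene that passed with the genotype label. It was at 28.5 and 46.6 CPM in young and old WT Cre and at 51.8 and 77.4 CPM in the young and old libraries labelled EC-K4KO (0.83, edgeR adjusted p = 4.84e-04), against 2.23% of all genes in either direction.

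Of the 4 proteases that shed these molecules, 3 were tested, and Adam10 and Adam17 fell with age by 0.31 (edgeR adjusted p = 0.0135) and 0.27 (edgeR adjusted p = 0.0309), against 8.26% of all genes. With 3 to 8 genes tested in each of this and the next 2 lists, 1 or 2 calls are read as values of single genes only. Mmp9 was at most 0.370 CPM. Of 14 leukocyte counter-receptors, 8 passed the filter on low counts in ECs. Of these Cd44 rose by 1.34 (edgeR adjusted p = 0.0466) at no more than 2.04 CPM, and the VCAM1-binding integrin subunit Itga4 fell by 2.12 (edgeR adjusted p = 1.97e-04). The highest was Itgb1 at 298 to 369 CPM, and Itgad was at 0. Among the 8 genes that build selectin ligands, 6 were tested and Chst2, a sulfotransferase, fell by 1.47 with age (edgeR adjusted p = 3.11e-05). St3gal6 was the highest at 270 to 334 CPM, and Chst4 was at 0. The medians of the last 4 lists were -0.03, -0.31, 0.10 and 0.01, against -0.02 over all genes tested.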

How the data were processed

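Single-cell RNA sequencing libraries of mouse brain, 1 for each of 4 groups of age and genotype label, were analysed. The authors deposited raw UMI counts per gene and barcode, whose file headers name Cell Ranger 6.0.2, on mm10 (GRCm38) per the submitters' processing notes, which also name Seurat. Columns held 5324 to 8358 barcodes and 30655769 to 88812581 UMIs per library. The study states fewer cells than these barcodes, and its own filter was not used.

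Barcodes passed with 500 or more genes, 1000 or more UMIs and no more than 10% of UMIs from mitochondrial genes, and the cells with the highest Scrublet scores (0.8% per 1000 cells, 147 to 385 per library) were removed as doublets. The authors' cell annotation was not used here. Cells were clustered with scanpy 1.11.5 (2000 variable genes without the 6 members, 30 components, 20 neighbours, Leiden resolution 1), and clusters were named from fixed marker lists. Endothelial-like cells were clustered again for segments. UMIs were summed per library and class and given as CPM. Ratios used 0.5 added UMIs. Shares were taken after thinning to 1000 UMIs. Precision is given as 95% intervals that cover counting error only. A count of 0 allows up to 3 counts.

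The additive model of age and genotype label was fitted with edgeR 4.0.16 (TMM, filterByExpr, quasi-likelihood test, Benjamini-Hochberg over all genes, threshold 0.05) in R 4.3.3. It compares 2 libraries with 2. Its p-values rest on 1 residual degree of freedom, the departure from additive effects, and on dispersion shared across genes. With no replicate library, they measure no spread between mice or between libraries of 1 group. On data simulated for the age term, all of 100 genes changed 2-fold were recovered among 15015 genes. The simulation used the same dispersion for every gene and changed only well-counted genes. It held no shift in segment mix and no other difference between libraries, so it cannot show how the model does where these occur. DESeq2 1.42.0 was an alternative. The genes named are the 6 members, the 3 most correlated genes of each, and, of 5 lists, the counts, the highest and lowest gene and, named after their values were seen, those that passed. The members and lists were chosen with earlier results of these data known. Sequences are from RefSeq.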

Additional observations from a re-analysis of the deposited data

Results flagged for a closer look

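In 5 cases the log2 ratios of a gene pointed opposite ways in 2 comparisons, and the difference was not tested because each side is 1 library. In arterial-like cells Vcam1 was lower in the young library labelled EC-K4KO than in young WT Cre (-1.09) and higher in the old library labelled EC-K4KO than in old WT Cre (0.48), 1.57 apart. The same 4 values give -0.31 for old over young WT Cre and 1.26 for the libraries labelled EC-K4KO, again 1.57 apart. Vcam1 also turned between the young and the old pair in Ackr1-led (-0.20 and 0.67, 0.86 apart) and in Slc38a5-led venous-like cells (-0.18 and 0.34, 0.52 apart). Arterial-like Icam2 had -0.30 with age in WT Cre and 0.27 in the libraries labelled EC-K4KO, 0.57 apart.

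Barcodes outside the filter on cells also held UMIs of the members. The highest library reached 98.2 CPM for Icam1, 30.3 for Icam2, 247 for Vcam1 and 114 for Pecam1, and the lowest 34.7, 17.5, 99.9 and 76.9 CPM. Sele was at 0.836, 4.18, 5.71 and 21.1 CPM and Selp at 0, 2.46, 2.18 and 22.2 CPM in such barcodes of young WT Cre, the young library labelled EC-K4KO, old WT Cre and the old one labelled EC-K4KO. Clusters left unnamed because they carried markers of 2 classes held members too. In the cluster with endothelial and erythroid markers the highest levels were 450 CPM for Icam1, 576 for Vcam1 and 15.7 for Sele in the old library labelled EC-K4KO, and 211 CPM for Icam2 in young WT Cre. In the cluster with endothelial and B cell markers Selp reached 11.4 CPM in the old library labelled EC-K4KO and Pecam1 573 CPM in the young library labelled EC-K4KO.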

How the results depend on the processing

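Of the single values recomputed under the alternatives, 490 kept their direction, call or range and 186 moved, 85 of them segment levels and the rest ratios. A further 7 reversed direction, 4 passed the threshold where the main setting had not, and 1 no longer passed it. Of 72 counts, 61 stayed within 1.5 times of the reported one. The others were the following. Without venous-like cells the members at least 2-fold apart were 1 in the young pair by genotype label (Selp, from a single UMI in young WT Cre) and 1, then lower, in the old pair (Sele), where 0.653% and 0.676% of the genes with at least 10 CPM were 2-fold apart, a level neither selectin reaches there, and 2 rose with age. In Ackr1-led cells alone, an alternative chosen after seeing the data, they were 1 in the young pair (1.54% of genes) and 2 between the libraries labelled EC-K4KO (4.05% of genes), which also had 2 at the fixed segment mix. In the old pair there was 1 with cells weighted equally and 1 without the 10 highest cells, where Selp turned to -0.16. In capillary-like cells alone 2 passed with age and 1 with the genotype label. With no filter on low counts 3 passed with the genotype label (Sele, Selp and Vcam1).

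Without venous-like cells, Sele turned to -0.016 in the young pair, to -4.49 in that of old libraries and to -2.64 between the libraries labelled EC-K4KO, and Selp to -0.59 in the old pair and -1.45 between the latter; Sele then had 0 UMIs in the old library labelled EC-K4KO, so these sizes depend on the added 0.5 UMIs. Vcam1 turned to -0.63 in the young pair, to -0.0032 for old over young WT Cre and to -0.11 with the genotype label. With cells weighted equally, Icam1 turned from -0.092 to 0.12 in the young pair. In capillary-like cells Vcam1 turned with age (-0.54) and label (-0.38), and in Ackr1-led cells Pecam1 with the label (-0.073). The causes were not tested. DESeq2 passed 4 with age and 0 with the label. Selp, Sele, Icam1 and Vcam1 stayed highest in venous-like cells of all 4 libraries with segments assigned cell by cell, with the stricter filter and without doublet removal. A venous list without Ackr1, Lrg1, Lcn2 and Tmem252 changed no assignment.

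No paired analysis was possible because each group holds 1 library, all numbered replicate 1; leaving a library out would leave no residual degrees of freedom. Counting error bears on the selectins of young WT Cre, which had 20 Selp and 47 Sele UMIs.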
